A study of Homo sapiens with 2 samples.

Results

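Matrix metalloproteinases (MMPs) were examined on arrays of Ca9-22, a line of oral squamous cell carcinoma (OSCC), with and without forced expression of the long noncoding RNA DLEU1. The 10 genes taken were MMP1, MMP2, MMP3, MMP7, MMP9, MMP10, MMP12, MMP13, MMP14 and MMP28, out of 43317 gene names on the array, and each was represented by 1 probe that carried its symbol and was not a control spot. One group had received a lentiviral vector with full-length DLEU1 cDNA, cloned from another OSCC line (KON), and the other the empty control vector. Both were kept on blasticidin, labelled as 6 mg/ml, over 2 weeks, and both therefore had undergone infection and drug selection. Each group was measured on 1 Agilent 1-colour array from 100 ng of RNA. With a single array per group there was no replicate, and no test, SD over cultures or p-value is given. Whether the infected cells were a pool or a clone, and which promoter drove DLEU1, was not given in the sources used here.

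MMPs are zinc-dependent endopeptidases that are made as inactive proenzymes, are secreted or held at the cell surface, and cleave proteins of the extracellular matrix. In carcinomas of the oral epithelium they are known for the breakdown of basement membrane and stroma at the invasive edge. Their activity is set by transcription, by cleavage of the propeptide, and by the tissue inhibitors of metalloproteinases (TIMPs). An array measures only the first of these, so the values here are RNA levels and not enzyme activity.

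MMPs are often grouped by substrate and build, and the results keep to that order. The collagenases MMP1 and MMP13 cut fibrillar collagen, the stromelysins MMP3 and MMP10 cut a broad range of matrix proteins and can activate other proMMPs, and MMP12 is the metalloelastase. MMP7 is matrilysin, and MMP2 and MMP9 are the gelatinases. MMP14 is a membrane-anchored enzyme that activates proMMP2, and MMP28 is epilysin, which is expressed by keratinocytes.

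The signals are the processed intensities of the scanner software. A level is the log2 signal minus the 75th percentile (log2) of the non-control probes on the same array, and a difference is the level under the DLEU1 vector minus that under the control vector. A probe was called detected where most of its spots were marked well above background. A gene was counted as higher or lower from 2-fold upwards. Levels are compared only for the same probe between the arrays, since probes differ in brightness for reasons other than RNA amount.

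Of 58201 probes, 47.6% were detected under the control vector and 48.1% under the DLEU1 vector, and no spot was saturated. Over the 20246 genes detected on both arrays, the median difference was -0.07. The spread between replicated spots of a probe was 0.0800 (SD of the log2 difference, 282 probes), and that between different probes of a gene was 0.470 (4674 genes). Neither contains the variation between cultures. The probe of the DLEU1 transcript NR_002605 gave a signal of 2178 under the control vector and 14156 under the DLEU1 vector, a difference of 2.74 (6.67-fold), whereas the probes of the DLEU1 transcript NR_109974 differed by 0.85 and 0.54. A strip of the DLEU1 vector array read low, with 55.6% of 135 lit probes at least 2-fold lower there and 12.2% elsewhere. The limits of the strip were set after the map of spots was seen, so this contrast only describes it. No MMP probe lay in the strip by the place of its first spot. For MMP1, which was printed in several spots, the other places were not checked.

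Of the 10 MMPs, 8 were detected on both arrays, and MMP2 and MMP7 on neither. Of these 8, MMP10, MMP13, MMP12 and MMP1 were at least 2-fold higher under the DLEU1 vector, 4 of 8 against 9.18% of all genes detected on both arrays. MMP3 alone was at least 2-fold lower, 1 of 8 or 12.5% against 9.78% of all genes, a share close to the background. MMP14, MMP28 and MMP9 differed by less than 2-fold. The median difference of the 8 MMPs was 1.0, against -0.07 for all genes. The members were chosen with earlier results of these data known, so these contrasts only describe them. Over all genes, 1858 were higher and 1981 lower, and scaling to spike-in RNA turned this split to 925 and 4856. Fewer cells of one kind and less RNA in each cell cannot be told apart in RNA from whole cultures.

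**Figure D1:**
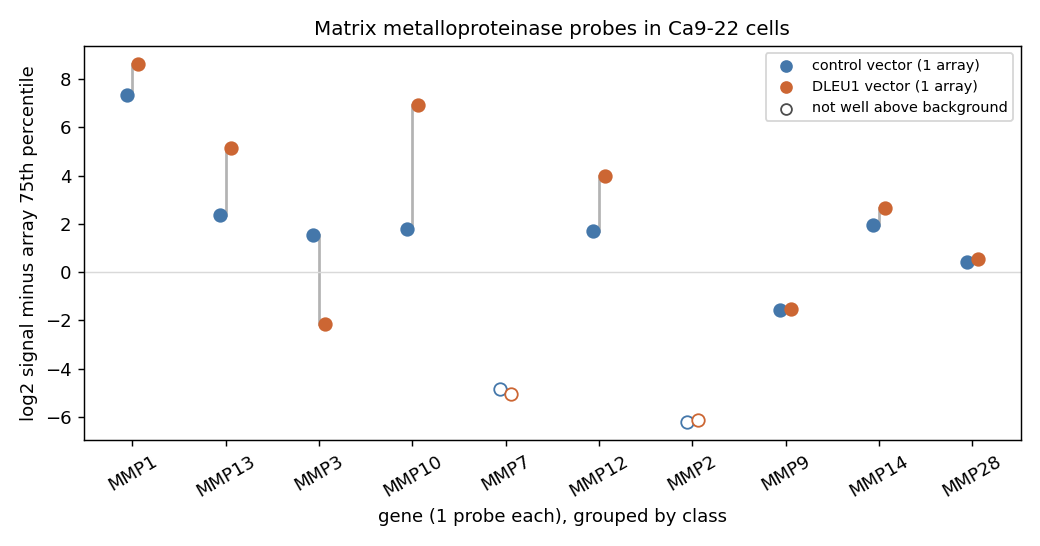
Level of each MMP (log2 processed signal minus the array's 75th percentile) on the control vector array and the DLEU1 vector array, 1 array each. Lines join the values of a gene, open points are not well above background, and values may be compared within a gene only. MMP10 goes from 1.78 to 6.92 and MMP3 from 1.54 to -2.14, while MMP9 and MMP28 stay nearly level and MMP2 and MMP7 are open points.

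The genes were measured by probes of 60 bases each matched to a transcript of that gene. The opening 30 bases of 5 probes are shown, those of the genes at least 2-fold apart, so that the stromelysin pair that moved apart can be set side by side. They are the deposited probe sequences, 5′ to 3′, with no part set in capitals.
MMP1: acatgtgcagtcactggtgtcaccctggat
MMP13: ctcagagacactgttgataaaaactcaggc
MMP3: tgactcgagtcacactcaagggaacttgag
MMP10: atgtattatgagccaaaatggttaattttt
MMP12: ttgtccattcttgcttgactctactattaa
The MMP3 and MMP10 probes had no run of more than 6 bases in common, and at best 21 of 60 bases matched when they were slid along each other without gaps. Over all 45 pairs of the 10 probes the longest shared run was 9 bases and the most matches 26 of 60. These comparisons are between probes. The match of a probe to the transcripts of its relatives was not analysed here.

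Both collagenases were higher under the DLEU1 vector. MMP1, the interstitial collagenase, was printed in 10 spots, of which 1 was left out on both arrays for an outlier mark. The signals of the other 9, before scaling, ran from 37617 to 39786 under the control vector (median 39291). Under the DLEU1 vector they ran from 86564 to 98847 (median 93182). The level went from 7.33 to 8.62, a difference of 1.29 or 2.44-fold, and the single spots gave 1.18 to 1.37 (SD 0.054, n = 9 spots of 1 array pair). MMP1 was brightly lit already without DLEU1, and its relative difference was the smallest of the 4 MMPs counted as higher. It is also the member whose count depended on scaling, as spike-in scaling gave 0.83, under 2-fold.

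**Figure D2:**
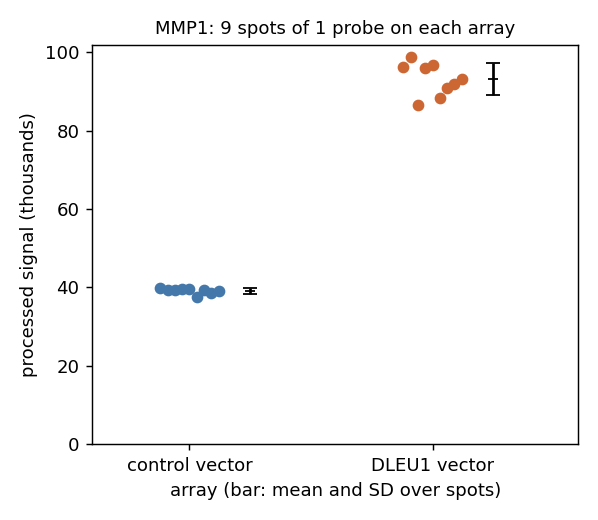
Processed signal (intensity, in units of 1000, axis from 0) of the 9 spots of the MMP1 probe on each array, with a bar for the mean and SD over spots. Points are spots of 1 array and not separate cultures. The DLEU1 vector spots lie between 86564 and 98847 and the control vector spots between 37617 and 39786.

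MMP13, or collagenase 3, had 1 spot, with a signal of 1244 under the control vector and 8273 under the DLEU1 vector. Its arrays were further apart, in fold, than those of MMP1. The level went from 2.36 to 5.13, a difference of 2.77 or 6.83-fold, with an error of 0.20 by the scanner software's own model. It ranked 153rd from the highest difference among the 20246 genes.

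The stromelysins moved in opposite directions. MMP10, stromelysin-2, had a signal of 832 under the control vector and 28600 under the DLEU1 vector. Its level of 1.78 became 6.92, a difference of 5.14 or 35.3-fold (software error 0.20), which ranked 19th from the highest of all genes detected on both arrays. MMP3, stromelysin-1, had a signal of 705 under the control vector and 53.4 under the DLEU1 vector. Its level went from 1.54 to -2.14, a difference of -3.68, or 12.9-fold lower (software error 0.22), and ranked 16th from the lowest. The differences of this pair were thus 8.83 apart on the log2 scale. The median difference over 100 surrounding spots was -0.15 for MMP10 and -0.17 for MMP3. Each of the pair had 1 spot per array, and such a median does not show a fault of that spot alone. The MMP3 value was smaller with normexp background correction, at -2.74, and dropped from the count once signals under 100 on either array were left out.

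MMP12, the metalloelastase best known from macrophages, gave a signal of 786 under the control vector and 3737 under the DLEU1 vector. It was higher in the latter, with levels of 1.70 and 3.98, a difference of 2.29 or 4.88-fold (software error 0.20). Because macrophages are its usual source, leukocyte markers are given here. Of 8 such markers with a probe, PTPRC, CD14, CSF1R, ITGAM and CD79A were detected on both arrays and CD163, CD3E and MPO on neither. The summed signal of all probes of these 8 genes was 3051 under the control vector and 5849 under the DLEU1 vector. Without CSF1R it was 2033 and 2241, most of it from CD79A at 1779 and 2022. CSF1R differed by 1.86 and CD14 by -1.60, of which the CD14 value came under 2-fold with normexp. The pan-leukocyte marker PTPRC was dim, at 72.7 and 96.9. Their part in the MMP12 difference was not tested.

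Matrilysin and the gelatinases gave no difference that could be read at 2-fold. MMP7 had signals of 8.58 under the control vector and 7.06 under the DLEU1 vector, and MMP2 had 3.27 and 3.34, all not well above background. MMP9, gelatinase B, was detected at 80.7 under the control vector and 80.9 under the DLEU1 vector, a difference of 0.04 against a software error of 0.22. The direction of the MMP9 difference is not set by these data, since median, quantile and spike-in scaling turned its sign, as did taking off the nearest spots. No fold is given for MMP2 or MMP7.

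MMP14, the membrane-type enzyme, was at 928 under the control vector and 1485 under the DLEU1 vector. Its levels were 1.94 and 2.65, a difference of 0.72 or 1.64-fold (software error 0.20), which passes a 1.5-fold threshold but not 2-fold. MMP28, the epilysin of keratinocytes, was at 326 under the control vector and 343 under the DLEU1 vector, a difference of 0.11 (software error 0.20). The MMP28 difference took the other sign with median and spike-in scaling.

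**Figure D3:**
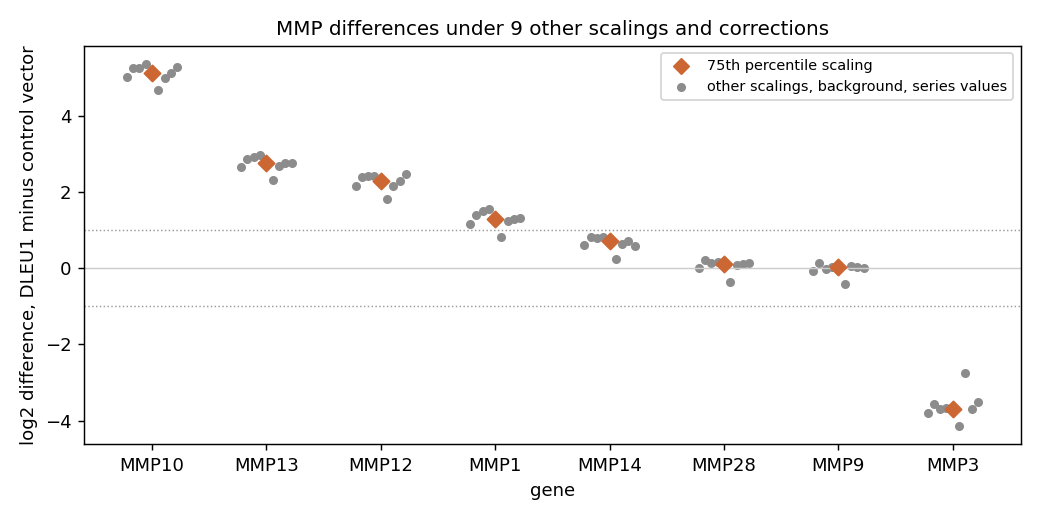
Log2 difference (DLEU1 vector minus control vector) of each detected MMP under the processing as reported (diamond) and under the 9 alternatives that can move it (points: 6 other scalings, normexp, the series values and the nearest spots taken off). Dotted lines mark 2-fold. MMP10 spans 4.68 to 5.37, MMP13 2.31 to 2.97, MMP12 1.82 to 2.49, MMP1 0.83 to 1.57 and MMP3 -4.15 to -2.74, so among these MMP1 alone crosses the 2-fold line.

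Of the 10 genes, the 6 named MMP7, MMP10, MMP1, MMP3, MMP12 and MMP13 lie in the MMP gene cluster of chromosome 11q22, all with probes on the minus strand (hg19, as in the deposited files). The MMP10 probe lies at chr11:102641405-102641464, the MMP1 probe at chr11:102660697-102660756, the MMP3 probe at chr11:102706694-102706753, the MMP12 probe at chr11:102733594-102733653 and the MMP13 probe at chr11:102813773-102813832. Exon and UTR annotation was not used here. The MMP3 probe, lower by 3.68 on the log2 scale, thus sits 46.0 kb from the MMP1 probe on one side and 26.9 kb from the MMP12 probe on the other, and both of these genes were higher. MMP10 is a further 19.3 kb beyond MMP1, and MMP13 80.2 kb beyond MMP12. The neighbouring MMP7, MMP20, MMP27 and MMP8 were detected on neither array.

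Within 1000 kb on either side of the cluster, 10 other genes were detected on both arrays. Their median difference was 0.19, none was at least 2-fold higher, and BIRC3, an inhibitor of apoptosis, was the 1 that was at least 2-fold lower, at -1.61. Over all genes, 9.18% were higher and 9.78% lower. The BIRC3 signals were 120 under the control vector and 38.2 under the DLEU1 vector. Its value was not recomputed with normexp or the other scalings. The highest flanking gene was KIAA1377 at 0.93. YAP1, BIRC2, TMEM123, DCUN1D5 and DYNC2H1 ran from -0.45 to 0.31. The 5 detected MMPs of the cluster therefore lay outside the range of the flanking genes. These flanking genes were named after their values were seen, and their count is too small for more than a description.

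**Figure D4:**
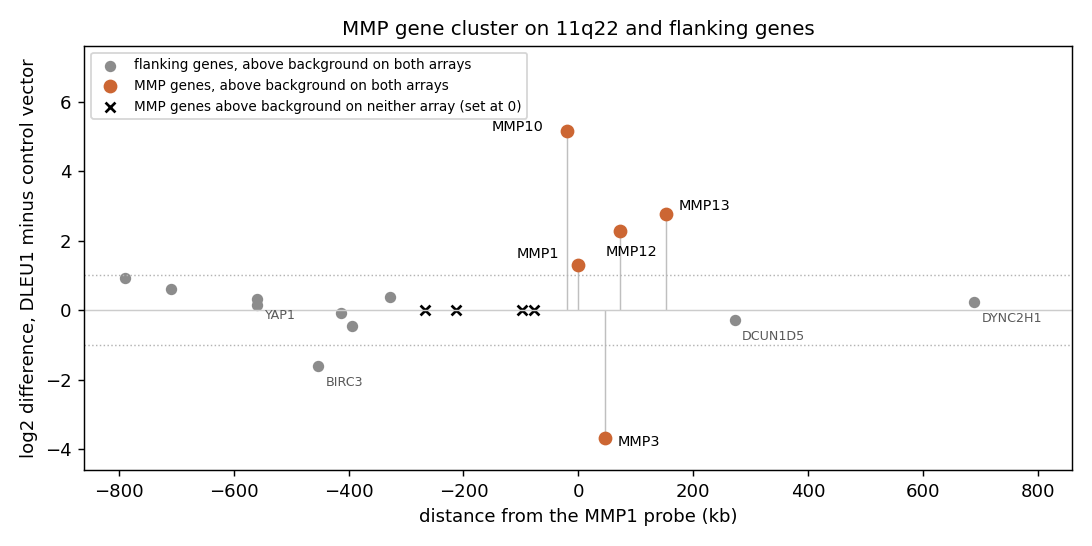
Log2 difference (DLEU1 vector minus control vector) of genes in and around the 11q22 MMP cluster against the distance of each probe from the MMP1 probe (kb, linear axis). Round points are genes detected on both arrays, crosses set at 0 are MMPs detected on neither, and dotted lines mark 2-fold. Of the 5 detected MMPs, 4 are above the upper 2-fold line and MMP3 is below the lower one, while all flanking genes but BIRC3 lie between the lines.

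The promoter letters of MMP10 are shown next because it had the largest difference of the 10 genes, with those of MMP7 from the same cluster, not detected, and of MMP14 from chromosome 14. Of the 10 genes, 3 matched an entry of the RefSeq promoter table (GRCh38.p14), and the 100 bases before each start are given 5′ to 3′ on the gene's strand, with matches to TATAAA and TGANTCA in capitals. The first is the common TATA box and the second holds the AP-1 site, which is bound by FOS and JUN proteins. MMP10 lies at chr11:102780629-102780728 (minus strand), MMP7 at chr11:102530748-102530847 (minus strand) and MMP14 at chr14:22836485-22836584 (plus strand).
MMP10: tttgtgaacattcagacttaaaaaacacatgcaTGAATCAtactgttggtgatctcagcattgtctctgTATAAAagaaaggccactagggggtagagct
MMP7: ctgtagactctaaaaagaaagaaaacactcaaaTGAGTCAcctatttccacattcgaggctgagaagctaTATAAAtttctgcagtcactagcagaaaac
MMP14: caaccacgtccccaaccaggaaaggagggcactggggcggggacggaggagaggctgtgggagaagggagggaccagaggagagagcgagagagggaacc
A TGANTCA match began 67 bases before the start in both cluster genes, and a TATAAA match began 31 bases before it in MMP10 and 30 in MMP7. Searched on both strands, TGANTCA was in 2.75% and TATAAA in 4.99% of 35116 promoter windows of this length. The MMP7 match is also the stricter TGAGTCA, held by 1.94% of windows on either strand. The MMP14 window held neither motif. MMP10 and MMP7 shared both motifs and differed in detection, and the motifs are a description of the letters only.

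The other members of the family were mostly dim. Of 13 further MMP genes with a probe, 6 were detected on both arrays, with a median difference of 0.37. Of these, 1 was at least 2-fold higher and 1 lower, against 9.18% and 9.78% of all genes. MMP11, stromelysin-3, had signals of 38.3 under the control vector and 79.1 under the DLEU1 vector, a difference of 1.08. MMP25, a membrane-anchored MMP of leukocytes, had 55.9 and 23.7, a difference of -1.20. Neither stayed past 2-fold with normexp (0.51 and -0.43), and MMP11 also came under it with median and spike-in scaling. MMP15, MMP17, MMP23B and MMP19 ran from -0.33 to 0.60. MMP8, MMP16, MMP20, MMP21, MMP24, MMP26 and MMP27 were detected on neither array.

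Inhibitors were found on both sides. Of 9 genes, 6 were detected on both arrays, with 1 at least 2-fold higher and 3 lower, against 9.18% and 9.78% of all genes. Their median difference of -0.48 lies in the gap between SERPINE2 (-1.28) and RECK (0.31), and was 0.31 when genes detected on a single array were added, so it gives no direction for the list. TIMP1, a secreted inhibitor of most MMPs, had a signal of 2325 under the control vector and 537 under the DLEU1 vector, a difference of -2.08. TIMP4 went the same way, from 206 to 17.9, a difference of -3.49, or -1.78 with normexp. TIMP3, which binds to the matrix, was higher, from 1171 to 4213 with a difference of 1.89, and TIMP2, which also takes part in the activation of proMMP2 by MMP14, was at 10839 and 16392 with a difference of 0.63. The 4 TIMP genes thus divided evenly between higher and lower values under the DLEU1 vector, although TIMP2 was within 2-fold.

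SERPINE2 acts on serine proteases upstream of the MMPs. It was at 81.4 under the control vector and 32.7 under the DLEU1 vector, a difference of -1.28 that came under 2-fold with normexp (-0.54). The membrane-bound inhibitor RECK differed by 0.31 at its brightest probe and by -1.23 at another, so its probes disagreed, and the sign of its value turned with their mean and with spike-in scaling. A2ML1, a protease inhibitor of stratified epithelium, was detected under the DLEU1 vector alone and was at least 2.89-fold higher there. A2M and TFPI2 were detected on neither array.

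Of 18 activators and surface partners, 15 were detected on both arrays, with a median difference of 0.29. Of these, 3 were at least 2-fold higher and 1 lower, against 9.18% and 9.78% of all genes. Spike-in scaling made the list's counts 2 and 3 and its median -0.17. LCN2, which forms a complex with MMP9, was at 20.8 under the control vector and 217 under the DLEU1 vector, a difference of 3.42, or 1.84 with normexp. KLK5, a kallikrein protease of keratinocytes, was at 470 and 3729, a difference of 3.03, and the lysosomal protease CTSB differed by 1.11, or 0.65 with spike-in scaling. PLAU, the urokinase that makes plasmin, was lower, at 393 and 155 with a difference of -1.30, and its receptor PLAUR differed by -0.65, or -1.11 with spike-in scaling. FURIN, which cleaves the propeptide of MMP14, differed by 0.29, a value whose sign turned with spike-in scaling. CD44, which docks MMPs at the cell surface, differed by 0.70 at its brightest probe and by -0.21 at another, dim one. Plasminogen itself (PLG) was detected on neither array.

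Among transcription factors and signals known to act on MMP promoters, single genes stood far apart in both directions. Of 30 genes, 26 were detected on both arrays, with 3 at least 2-fold higher and 7 lower, against 9.18% and 9.78% of all genes. The list's counts became 3 and 3 with normexp and 2 and 10 with spike-in scaling. Over all genes the counts were 1121 higher and 1413 lower with normexp, and 925 and 4856 with spike-in scaling. The median difference was -0.06, beside -0.07 for all genes, and with spike-in scaling -0.53 for both. Within AP-1, FOSL1 had a signal of 4262 under the control vector and 251 under the DLEU1 vector, a difference of -4.05, while JUNB was at 483 and 2180, a difference of 2.21. FOSL2 differed by 1.12, JUND by 0.88, FOSB and JUN by 0.53 each, and FOS by 0.30. FOSL1 was the 1 detected AP-1 gene on the list with a value below 0, although spike-in scaling also took FOS to -0.16 and FOSL2 under 2-fold.

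Among the ETS factors, ETV5 was at 193 under the control vector and 26.0 under the DLEU1 vector, a difference of -2.85, or -1.41 with normexp. ETV4 was detected under the control vector alone and was at least 6.33-fold lower with DLEU1. ETS1 differed by -1.12, which became -0.46 with normexp, and ETS2 by 0.77. RUNX2, which acts on the MMP13 promoter, was at 73.2 and 214, a difference of 1.59. Of the ligands and cytokines, NRG1 differed by -4.04, IL6 by -1.71, HBEGF by -1.37 and IL1A by -1.04, and CXCL8 was detected under the control vector alone, at least 7.85-fold lower with DLEU1. IL6 and HBEGF came under 2-fold with normexp, and IL1A also with 3 of the scalings. The receptor EGFR differed by 0.53 at its brightest probe and by 1.16 and 0.48 at others, so its probes fell on both sides of 2-fold. TNF and IL1R1 were detected on neither array.

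Of 29 substrates of the matrix and basement membrane, 23 were detected on both arrays, with a median difference of -0.08. Of these, 7 were at least 2-fold higher and 3 lower, against 9.18% and 9.78% of all genes. Spike-in scaling made the list's counts 5 and 5. COL1A1, the main chain of the fibrillar collagen cut by MMP1 and MMP13, was at 337 under the control vector and 5217 under the DLEU1 vector, a difference of 3.99, while its partner COL1A2 was detected on neither array. Other collagens that were higher were COL7A1 at 1.98, COL5A1 at 1.87, COL4A5 at 1.78 and COL5A2 at 1.41, the last of which came under 2-fold with spike-in scaling (0.95). NID1, a basement membrane linker, differed by 2.06. The laminin chains LAMB3 and LAMA3 differed by -0.31 and -0.28, each within 2-fold.

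The substrates that were lower were SPP1 (osteopontin) at -2.84, ELN (elastin, the substrate that named MMP12) at -2.40 and TNC (tenascin C) at -1.48. With normexp these were -1.84, -1.45 and -0.60, the last under 2-fold. ELN had another probe that differed by 0.34, and the mean of its probes was -1.03. CDH1, the E-cadherin shed by several MMPs, differed by 1.04 over 10 spots on each array. The first of these spots lay in the strip that read low, and the places of the others were not checked. The CDH1 value was under 2-fold with median and spike-in scaling. FN1, SPARC, VCAN, COL3A1 and COL8A1 were detected on neither array.

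The ADAM and ADAMTS proteases are relatives of the MMPs that shed surface proteins and cut proteoglycans. Of 18 genes, 13 were detected on both arrays, with a median difference of 0.01. Of these, 2 were at least 2-fold higher and 3 lower, against 9.18% and 9.78% of all genes. ADAMTS1, an aggrecanase and versicanase, was at 192 under the control vector and 29.6 under the DLEU1 vector, a difference of -2.66, or -1.35 with normexp. ADAMTS4 and ADAMTS6 differed by -1.72 and -1.39, both under 2-fold with normexp. ADAMTSL4 is an ADAMTS-like gene on this list and not an ADAMTS protease. It differed by 1.46, or by 2.28 as the mean of its probes, and came just under 2-fold with spike-in scaling. ADAM19 differed by 1.02, a value at the threshold that 5 of the alternatives took below it. The shedding enzymes ADAM10 and ADAM17 differed by 0.55 and 0.00.

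**Figure D5:**
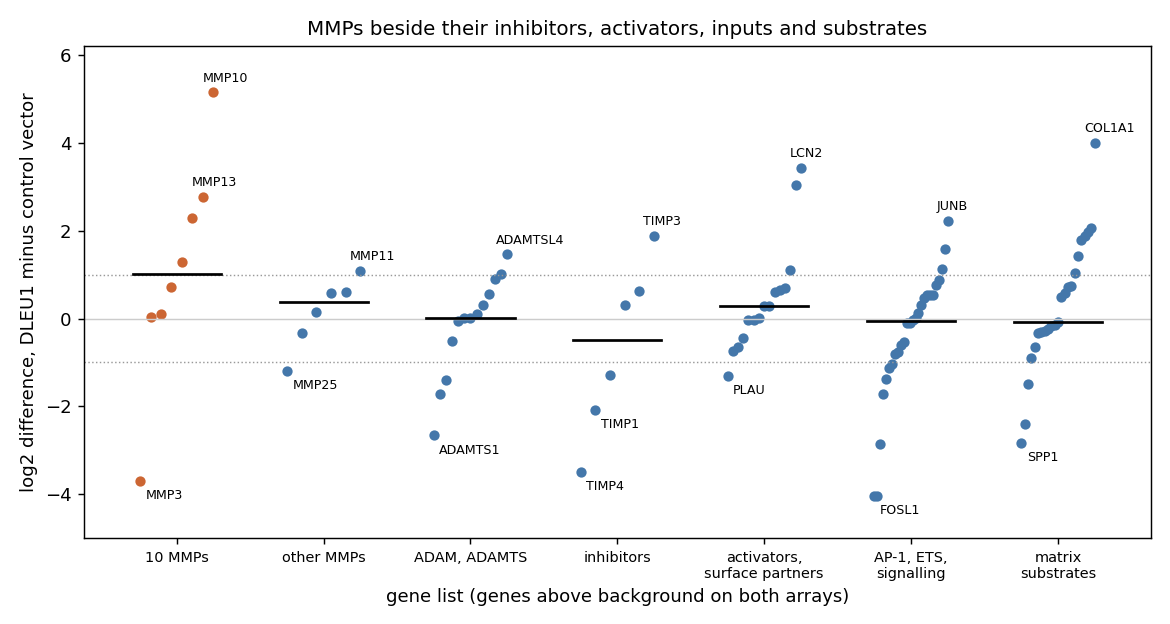
Log2 difference (DLEU1 vector minus control vector) of each gene detected on both arrays, by gene list, with the list median as a bar and dotted lines at 2-fold. The median is 1.0 for the 8 MMPs examined, 0.37 for the other MMPs, -0.48 for the inhibitors and 0.29 for the activators, and lies between -0.08 and 0.01 for promoter inputs, substrates and ADAM relatives.

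The labelled cell type was checked against markers fixed with the lists. All 10 markers of oral squamous epithelium were detected on both arrays. Of them, 7 were at least 2-fold higher under the DLEU1 vector, from CDH1 at 1.04 to KRT17 at 3.09, against 9.18% of all genes. EPCAM was the lowest at -0.78, the list's median was 2.19, and the summed signal of the 10 was 234512 and 497387. The MMPs that were higher thus stood beside higher keratins, and the part of either in the other was not tested.

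Of 10 fibroblast markers, COL1A1, FBLN1 and PDGFRB were detected on both arrays and LUM under the DLEU1 vector alone, at least 2.47-fold higher. DCN, PDGFRA, COL1A2, COL3A1, FAP and THY1 were detected on neither array, and the summed signal was 7364 and 10463. Without COL1A1 it was 7028 and 5246, and the other markers detected on both arrays, FBLN1 and PDGFRB, differed by -0.69 and -0.33. The FBLN1 value is from its brightest probe, and its other detected probes differed by -0.07 and 0.03. Of 6 endothelial markers, VWF at 3.70 and CDH5 at -0.59 were detected and PECAM1, KDR, TEK and EMCN were not, with a summed signal of 162 and 700, or 77.1 and 56.5 without VWF. VWF was 2.60 with normexp, and another of its probes differed by -0.07. The defining markers of fibroblasts and endothelium were thus mostly not detected. Fibroblasts are a usual source of MMP2, which was not detected either, and whether these are linked was not tested.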

How the data were processed

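RNA of Ca9-22 cells was measured on 1 Agilent 1-colour array per group. The deposited intensity values are processed signals from Agilent Feature Extraction (10.7.3.1 per the file headers), after background subtraction and spatial detrending. The authors' series values hold the same intensity, rounded, to within 0.497%, with medians of 14.3 and 15.0 and no scaling between arrays. Positions are hg19.

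Control spots and outlier spots (84 and 103) were left out, spots of a probe were averaged in log2, and each array's 75th percentile (7.92 and 7.88) was subtracted. A gene took its brightest probe detected on both arrays. Summed signals of marker lists add the signals of all probes of the listed genes, detected or not, without scaling between arrays. For probes detected on a single array, the fold is a bound against the dim array's lowest detected signal or the probe's own, whichever is higher. Genes were called at 2-fold. With 1 array per group no test was possible, the number of arrays limits the precision, and differences compare these arrays only. Errors are those of spots and of the scanner software.

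The members and gene lists were chosen with earlier results of these data known. Named were the 10 members, list genes at least 2-fold apart, the extremes of each list and 9 genes whatever their values (TIMP1, TIMP2, TIMP3, PLAU, PLAUR, FURIN, FOSL1, ETS1, DLEU1). Others were chosen after their values were seen. MMP23A, CD68 and LYZ were not analysed here, and 2 other list genes are not reported here and were left out of the list counts and medians. The calculation was tested on simulated data. Python 3.11.15 (pandas 2.3.3) and, for normexp with an offset of 50, R 4.3.3 with limma 3.58.1 were used. Alternatives were other scalings, background, detection filters, thresholds and probe rules.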

Additional observations from a re-analysis of the deposited data

How the results depend on the processing

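Of 16 alternatives, 7 cannot move an MMP difference, since each MMP has 1 probe, placed by its first spot outside the damaged strip. Under the other 9, none of the 72 recomputed differences of the detected MMPs reversed a 2-fold call. Only MMP10, MMP13, MMP12, MMP1 and MMP3 had a call to reverse, and MMP9 and MMP28 did change sign. Of the 72 values, 31 stayed within 1 spot SD of the value reported and 41 did not. No scaling and the rounded series values could not move a difference that far, so their values are among the 31. The number of MMPs at least 2-fold higher ran from 3 (spike-in scaling, MMP1 at 0.83) to 5 (a 1.5-fold threshold, with MMP14). The number lower was 0 with signals under 100 left out, since MMP3 then dropped out. The median of the detected MMPs scaled by the array median was 0.89, by the upper quartile of the detected probes 1.11, by quantiles 1.16, by loess 1.20 and by spike-ins 0.54. It was 0.41 when dim probes were kept and 1.79 when signals under 100 were left out. The DLEU1 probe gave 2.62, 2.85, 2.92, 2.97 and 2.28 under these 5 scalings, 1.38 as the mean of its probes, and 2.92 with the nearest 100 spots taken off, an alternative chosen after seeing the data.

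All-gene counts, with 1858 higher and 1981 lower as reported, moved by over 1.5 times with spike-in scaling (925 and 4856), no filter (4232 and 3807), a 1.5-fold threshold (3731 and 4459) and a 3-fold threshold (774 and 671), and the higher count with normexp (1121) and with signals under 100 left out (1026). Spike-in scaling rests on 8 probes, 7 of them higher on the DLEU1 vector array, with shifts from -0.19 to 0.55, and moves the median of all genes to -0.53. Of 44 list genes past 2-fold outside the members, 17 came under 2-fold with at least 1 alternative. The medians of the other MMPs (-0.10) and the activators (-0.17) were below 0 with spike-in scaling. The inhibitor median ran from -0.94 (spike-in scaling) to 0.47 (signals under 100 left out). With signals under 100 left out, the genes counted as lower fell from 3 to 1 among the inhibitors, from 7 to 4 among the promoter inputs and from 3 to 0 among both the substrates and the ADAM relatives, and LCN2 and TIMP4 dropped out. No paired analysis was possible because each group has 1 array. No alternative can supply the variation between cultures.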

Other observations

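Antisense transcripts named after MMP genes were read by their own names and not by the host gene. Both MMP24-AS1 probes were detected on both arrays, with signals of 207 and 3162 under the control vector and 414 and 5959 under the DLEU1 vector, differences of 1.03 and 0.95, while the MMP24 gene itself was detected on neither array. Of the 4 MMP25-AS1 probes, 3 were detected on both arrays and differed by 0.47, 0.56 and 0.81, where the detected MMP25 probe differed by -1.20. The MMP25 value is from a dim probe (23.7 under the DLEU1 vector) and became -0.43 with normexp.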
